A study of Mus musculus with 6 samples.

Results

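The genes described here are 10 chemokine ligand genes of the mouse, Ccl2, Ccl3, Ccl4, Ccl5, Ccl7, Ccl9, Ccl22, Cxcl2, Cxcl10 and Cxcl14. They were taken by gene symbol from a table of 16171 genes, and all 10 were found in it. The table comes from Raw264.7 cells, a mouse macrophage line labelled wild type. Cells of 3 libraries grew on titanium bearing titanate nanowires from alkaline heat treatment (TH, the control surface), and cells of the other 3 on titanium with a biomimetic coating of calcium phosphate nanowires (THCaP). Cells of all 6 libraries attached for 12 h, then received 1 µg/mL lipopolysaccharide (LPS, a piece of the outer bacterial membrane that switches macrophages on) over 2 h, with collection after 1 d of culture. Both surfaces therefore carry LPS-treated cells, and no library without LPS was analysed here. The comparison asks how the new coating alters the immune state of macrophages, for which the chemokine genes are one readout.

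Chemokines are small secreted proteins that attract leukocytes through G protein-coupled receptors. CC ligands (Ccl genes) carry adjacent cysteines near the N terminus and mainly recruit monocytes, macrophages and lymphocytes, whereas CXC ligands (Cxcl genes) carry a residue between those cysteines and recruit neutrophils or lymphocytes. In macrophages LPS induces many of them through NF-κB, and some, such as Cxcl10 and Ccl5, also through interferon and its transcription factors. Several of their mRNAs hold AU-rich elements that shorten their life.

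The libraries held between 28000099 and 30317108 counted reads. On the first principal component of all 11480 tested genes the surfaces were separate, with THCaP replicate 3 nearest to TH, and TH replicate 1 stood apart on the second. The summed level of 10 macrophage markers ran from 2944 to 3439 CPM (TMM-scaled counts relative to the library total) on TH and from 3088 to 3331 on THCaP. Of these, Lyz2 was called higher on THCaP (1.54-fold, edgeR adjusted p = 0.0223) and the other 9 were not called, although Csf1r lay higher and Cd68, Cd14 and Ptprc lower in every THCaP library than in any TH library. Over all tested genes 11.6% were called higher, and 22.1% lay higher and 21.3% lower without overlap. The marker counts are near these shares and thus no result about the list. The 6 neutrophil markers in the table summed to at most 0.105 CPM, with S100a8 and Camp at 0, and the 6 lymphoid markers to at most 0.735 CPM. The 5 endothelial markers summed to 5.23 to 6.42 CPM on TH and 2.91 to 4.91 CPM on THCaP, without overlap, most of it Pecam1 (4.84 ± 0.551 and 3.06 ± 0.907 CPM, n = 3 each, edgeR adjusted p = 0.0613). The 5 dendritic cell markers summed to 7.6 to 8.49 CPM on TH and 3.78 to 5.45 CPM on THCaP, almost all of it Zbtb46, which fell from 7.82 to 4.43 CPM (edgeR adjusted p = 0.0134). Flt3 had 1 count over each surface's libraries and Cd209a had 0. Of the endothelial markers, Cdh5, Kdr and Tek had 6 counts or fewer over either surface's libraries. Vwf averaged 0.759 CPM on TH and 0.776 CPM on THCaP. All libraries are labelled Raw264.7 cells, so these sums mainly give the transcript levels of Pecam1 and Zbtb46. They do not measure a share of other cell types. The part of these markers in the chemokine results was not tested. In such bulk RNA, fewer expressing cells and less RNA per cell cannot be told apart.

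Of the 10 ligands, 9 passed the filter on low counts and were tested, whereas Ccl7 did not. On THCaP 6 of the 9 fell, namely Ccl5, Ccl22, Ccl4, Ccl9, Ccl3 and Cxcl2, and Cxcl14 alone among them rose. Over all tested genes 12.0% were called lower and 11.6% higher (edgeR quasi-likelihood test, Benjamini-Hochberg adjusted p under 0.05). Ccl2 and Cxcl10 were not called. The median log2 fold change of the 9 was −0.89, beside 0.01 for all tested genes. In 7 of the 9 all THCaP libraries lay below all TH libraries, and in 1 above them, while 21.3% and 22.1% of all tested genes were separated downward and upward. The 6 lower calls and the higher call of Cxcl14 held when each library was left out in turn. With TH replicate 1 left out, Ccl2 was called higher as well. Of all tested genes, 11.9%, 4.37% and 4.23% were called lower without TH replicates 1, 2 and 3, and 4.01%, 8.10% and 17.4% without THCaP replicates 1, 2 and 3. The shares called higher were 9.25%, 2.54% and 2.54%, then 2.51%, 6.34% and 18.5%. The count of ligands that fell thus stayed at 6 while the share of all genes that fell ran from 4.01% to 17.4%. The members and the lists below were chosen with earlier results of these data known, so such counts are descriptions. A fit with the replicate number as a block called the same numbers of ligands, with 12.7% of all genes lower and 12.4% higher. Without both TH replicate 1 and THCaP replicate 3 these shares were 22.5% and 22.8%. On log2(FPKM + 1) of all genes, with no filter on low values, they were 1.61% and 2.26%, and 2 ligands were called lower and 0 higher.

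**Figure D1:**
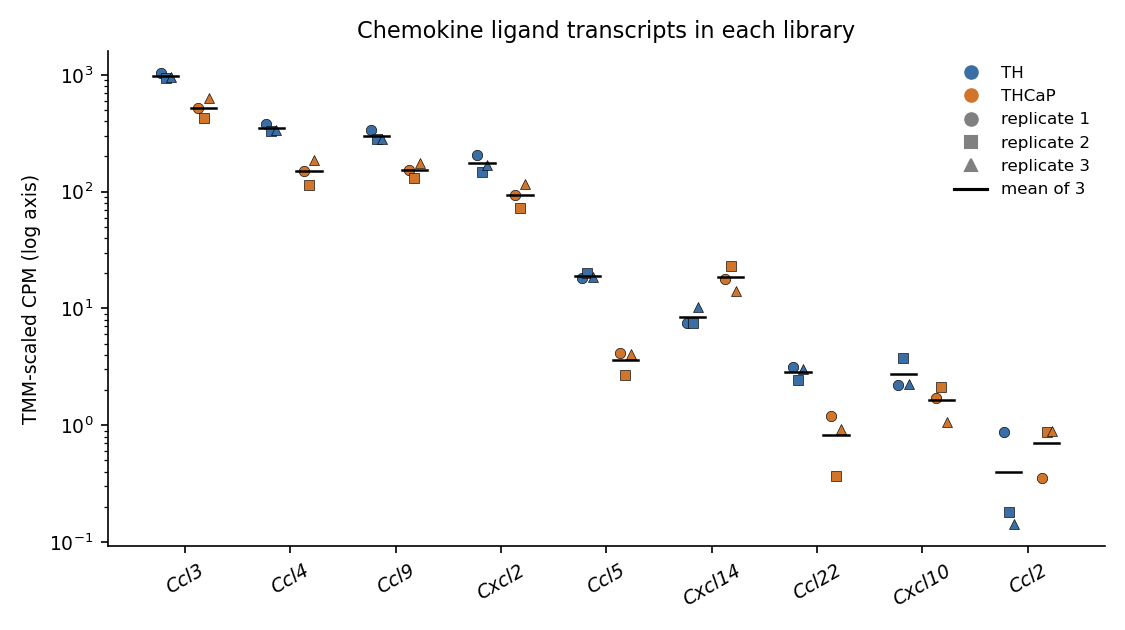
TMM-scaled CPM (log axis) of 9 chemokine ligands in each of 3 TH (blue) and 3 THCaP (orange) libraries, with symbols for the replicate and bars for the mean of 3. Ccl7, with 1 count in all, is left out. Orange symbols lie below blue ones for Ccl3, Ccl4, Ccl9, Cxcl2, Ccl5, Ccl22 and, narrowly, Cxcl10, lie above them for Cxcl14, and mix with them for Ccl2.

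The sequence upstream of the start site is shown for 4 ligands that behaved differently: Cxcl2 and Ccl9, which fell, Cxcl10, which was not called, and Cxcl14, which rose. The bases come from RefSeq on GRCm38.p6, the assembly that mm10 names. RefSeq windows were at hand for 6 of the 10 ligands, and Ccl2, Ccl4, Ccl5 and Ccl7 had none. Ccl3 and Ccl22, which also fell, had windows without a match to the motifs below and are not printed. The printed set therefore does not stand for all ligands that fell. Each line reads 5′ to 3′ on the gene's strand and ends just before the annotated start. Capitals mark matches on either strand to the NF-κB consensus (κB), the interferon-stimulated response element core (ISRE; GAAA, any 2 bases, GAAA), the AP-1 site TGANTCA or the TATA box TATAAA. Overlapping matches merge into one run of capitals.
Cxcl2, chr5:90903649-90903870, plus strand: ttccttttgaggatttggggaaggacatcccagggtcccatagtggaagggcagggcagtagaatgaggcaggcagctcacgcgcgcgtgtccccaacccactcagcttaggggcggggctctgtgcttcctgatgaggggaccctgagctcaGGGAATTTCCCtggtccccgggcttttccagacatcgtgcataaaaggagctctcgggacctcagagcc
Ccl9, chr11:83578637-83578886, minus strand: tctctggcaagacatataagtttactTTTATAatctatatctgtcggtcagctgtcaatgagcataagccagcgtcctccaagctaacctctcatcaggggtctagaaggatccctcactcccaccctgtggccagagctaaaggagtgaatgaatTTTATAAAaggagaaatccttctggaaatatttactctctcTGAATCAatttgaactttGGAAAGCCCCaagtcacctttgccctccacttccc
Cxcl10, chr5:92348890-92349139, minus strand: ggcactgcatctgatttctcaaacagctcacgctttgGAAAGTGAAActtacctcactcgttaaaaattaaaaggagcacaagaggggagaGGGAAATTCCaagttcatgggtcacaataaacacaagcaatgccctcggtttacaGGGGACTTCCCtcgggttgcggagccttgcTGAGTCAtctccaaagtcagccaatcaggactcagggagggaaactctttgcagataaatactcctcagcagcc
Cxcl14, chr13:56296552-56296801, minus strand: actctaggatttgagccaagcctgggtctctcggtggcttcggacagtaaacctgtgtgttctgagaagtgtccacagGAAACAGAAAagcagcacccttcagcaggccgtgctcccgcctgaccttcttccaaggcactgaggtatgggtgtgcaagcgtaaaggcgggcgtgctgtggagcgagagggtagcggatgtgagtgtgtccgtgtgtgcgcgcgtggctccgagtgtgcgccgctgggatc

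In windows of 250 bases before the RefSeq start, a κB match stood in 3 of the 6 ligands, Cxcl2, Ccl9 and Cxcl10. Of all 32851 such windows of the mouse, 7.25% held one. Cxcl10 had 2 separate κB stretches, an ISRE match and an AP-1 match. Cxcl14 had an ISRE match and no κB match, and 2.98% of all windows held an ISRE match. Ccl9 also had an AP-1 match (6.75% of windows) and TATA matches on both strands (12.4% of windows). The windows of Ccl3 and Ccl22 held none of the 4 motifs. These are matches of letters in one short window and were not measured for binding.

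Ccl3 and Ccl4, which draw monocytes and T cells, were the most abundant members per transcript length on both surfaces, as given below. In CPM, which ignore length, Ccl9 (154) was level with Ccl4 (150) on THCaP. Ccl3 stood at 1030, 931 and 959 CPM in TH replicates 1, 2 and 3 and at 520, 426 and 628 CPM in THCaP replicates 1, 2 and 3. The surfaces did not overlap, and the THCaP library nearest to TH was replicate 3. Ccl3 fell 1.86-fold, from 973 ± 51.4 to 524 ± 101 CPM (mean ± SD, n = 3 each; log2 change −0.89 with SE 0.13, adjusted p = 0.00422 in edgeR). Ccl4 measured 378, 332 and 340 CPM on TH and 150, 113 and 187 CPM on THCaP, again without overlap. Its fall was 2.33-fold, from 350 ± 24.7 to 150 ± 36.7 CPM (n = 3 each; log2 change −1.22 with SE 0.16, adjusted p = 0.00314 in edgeR). These genes lie 13.2 kb apart on chromosome 11, Ccl3 at chr11:83647844-83649355 on the minus strand and Ccl4 at chr11:83662584-83664683 on the plus strand, both protein coding. How reads shared by similar genes were counted is not given in the sources used here.

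Ccl5, which attracts T cells and monocytes and is a known target of both NF-κB and interferon regulatory factors, changed most in this set. TH libraries held 543, 562 and 519 counts, and THCaP libraries 119, 81 and 120 counts. In CPM these are 18.1, 20.2 and 18.6 against 4.17, 2.71 and 4.09, so every THCaP library was far below every TH library and the TH libraries were close to each other. The fall was 5.20-fold (19.0 ± 1.11 to 3.65 ± 0.82 CPM, n = 3 each; log2 change −2.38 with SE 0.17, adjusted p = 0.000444 in edgeR). Ccl5 lies at chr11:83525778-83530518 on the minus strand, in the same gene cluster as Ccl3 and Ccl4.

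Ccl9, a Ccr1 ligand that osteoclasts and myeloid cells make, lies in the same cluster, at chr11:83572919-83578636 on the minus strand. It measured 336, 282 and 284 CPM on TH and 153, 131 and 177 CPM on THCaP. TH replicate 1 was the highest library, and the surfaces did not overlap. Ccl9 fell 1.96-fold (301 ± 30.7 to 154 ± 22.8 CPM, n = 3 each; log2 change −0.97 with SE 0.12, adjusted p = 0.00274 in edgeR). Between Ccl9 and Ccl3 lies Ccl6, which is not one of the 10 and reached 0.7 ± 0.339 and 0.398 ± 0.0903 CPM (TH and THCaP, n = 3 each). Ccl6 was not called (log2 fold change −0.81, SE 0.44, edgeR adjusted p = 0.2). All 4 members in this stretch of chromosome 11 thus fell, by log2 values from −2.38 to −0.89.

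Ccl22, a ligand of Ccr4 that attracts regulatory and type-2-like helper T cells, was low on both surfaces. Counts were 94, 68 and 85 on TH and 34, 11 and 27 on THCaP, or 3.14, 2.45 and 3.04 CPM against 1.19, 0.368 and 0.92 CPM. All THCaP libraries were below all TH libraries, and THCaP replicate 2 was the lowest. The fall was 3.49-fold with a wide error (2.88 ± 0.374 to 0.826 ± 0.419 CPM, n = 3 each; log2 change −1.80 with SE 0.35, adjusted p = 0.0096 in edgeR). The fold ran from −2.16 without THCaP replicate 1 to −1.45 without THCaP replicate 2 on the log2 scale, and was called in both cases. Ccl22 lies at chr8:94745590-94751699 on the plus strand. Its neighbours on that chromosome, Cx3cl1 and Ccl17, had 18 and 1 counts over all 6 libraries.

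Cxcl2, which attracts neutrophils through Cxcr2, was the only member of that function with a high level. It stood at 204, 148 and 169 CPM on TH and at 93.8, 72.3 and 115 CPM on THCaP. The lowest TH library, replicate 2, was above the highest THCaP library, replicate 3. Cxcl2 fell 1.86-fold (174 ± 28.3 to 93.8 ± 21.5 CPM, n = 3 each; log2 change −0.89 with SE 0.17, adjusted p = 0.00861 in edgeR). The gene lies at chr5:90903871-90905938 on the plus strand, directly after the upstream sequence printed for it. The related neutrophil attractant Cxcl3, on the same chromosome, had 7 counts in all on TH and 5 on THCaP.

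Cxcl10, which attracts T and NK cells through Cxcr3, did not pass the test. Counts were 66, 104 and 63 on TH and 49, 64 and 31 on THCaP, so the counts themselves overlapped. After scaling, TH measured 2.21, 3.75 and 2.26 CPM and THCaP 1.72, 2.14 and 1.06 CPM, a gap of less than the counting error between the nearest libraries: 66 counts carry a 95% exact Poisson interval of 51.0 to 84.0, and 64 counts one of 49.3 to 81.7. The log2 fold change was −0.74 (SE 0.32, edgeR adjusted p = 0.114, unadjusted p = 0.0423). It ranged from −0.98 to −0.45 over 16 alternatives, with no call in any of them. Cxcl10, at chr5:92346638-92348889 on the minus strand, shares exon bases with Art3 on the opposite strand. Art3 had 6 counts on each surface, and the strand setting of the counting is not given in the sources used here.

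Cxcl14 was the only member called higher on THCaP. It is a chemokine made without inflammatory stimuli in many epithelia and has roles in monocyte and dendritic cell migration. TH libraries held 223, 210 and 286 counts and THCaP libraries 506, 691 and 418 counts, or 7.45, 7.57 and 10.2 CPM against 17.7, 23.1 and 14.2 CPM. Every THCaP library was above every TH library, with the smallest distance between THCaP replicate 3 and TH replicate 3. The rise was 2.18-fold (8.42 ± 1.58 to 18.4 ± 4.47 CPM, n = 3 each; log2 change 1.12 with SE 0.19, adjusted p = 0.0072 in edgeR). Cxcl14 lies on another chromosome than the other members, at chr13:56288643-56296551 on the minus strand.

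Ccl2 and Ccl7, ligands of Ccr2 that recruit monocytes, lie next to each other on chromosome 11 (chr11:82035571-82037453 and chr11:82045712-82047525, both on the plus strand) and were near or below detection. Ccl2 had 26, 5 and 4 counts in TH replicates 1, 2 and 3 and 10, 26 and 26 counts in THCaP replicates 1, 2 and 3. TH replicate 1 thus equalled the 2 highest THCaP libraries, and the other TH libraries were the lowest. Over all libraries Ccl2 was not called (log2 fold change 0.79, SE 0.63, edgeR adjusted p = 0.38). Without TH replicate 1 the log2 fold change was 2.09 (SE 0.60) and just passed the threshold (edgeR adjusted p = 0.0496). Without TH replicate 2 it was 0.45 and without TH replicate 3 0.40, at adjusted p = 0.683 and 0.705, so the value rests on single libraries. Ccl7 had 0 counts in 5 libraries and 1 in THCaP replicate 2. As a one-sided limit, a count of 0 allows up to 3 counts, at most 0.108 CPM in these libraries. The two-sided 95% exact Poisson interval reaches 3.69 counts for a count of 0 and runs from 0.0253 to 5.57 counts for the 1 count. No difference in Ccl7 was detectable at this depth. Such limits cover counting error only.

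**Figure D2:**
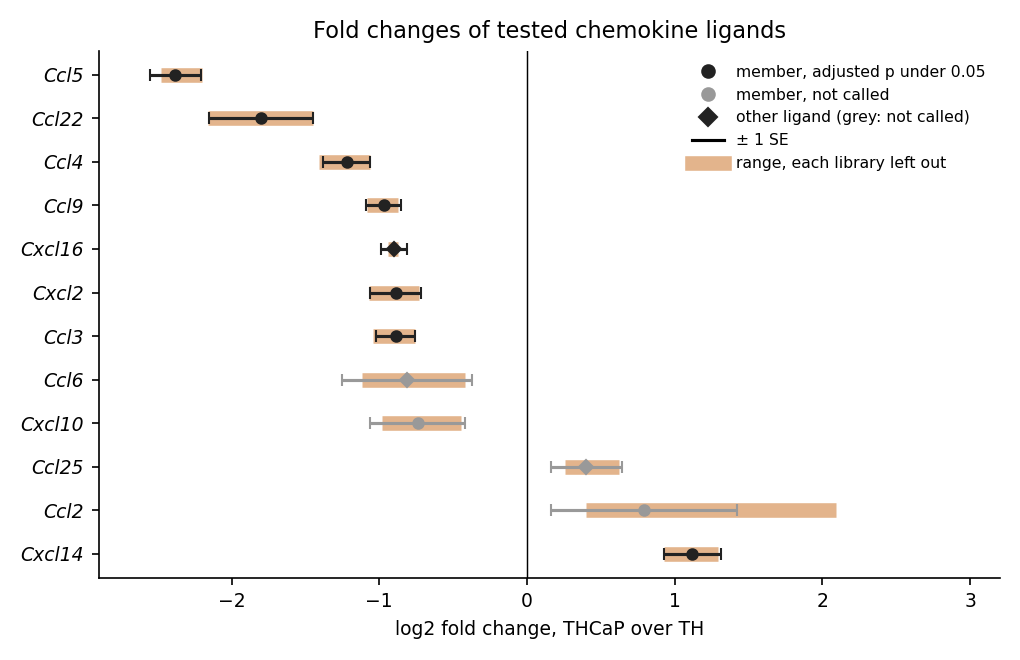
Log2 fold change (THCaP over TH, horizontal axis) of the 9 tested ligands (circles) and of 3 other tested chemokine ligands (diamonds), black where the adjusted p is under 0.05 and grey where it is not. Whiskers are ± 1 SE and tan bars the range with each library left out in turn, which for Ccl2 runs from 0.40 to 2.09.

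Levels can be compared between genes only per transcript length, for which the authors' FPKM (fragments per kilobase of transcript, scaled to depth) were used. On TH the order was Ccl3 (1210 ± 68.0 FPKM, n = 3), Ccl4 (520 ± 38.9), Cxcl2 (158 ± 26.2), Ccl9 (98.2 ± 10.5) and Ccl5 (35.1 ± 2.09). Cxcl14 (4.23 ± 0.764 FPKM), Cxcl10 (2.44 ± 0.787), Ccl22 (1.56 ± 0.202), Ccl2 (0.486 ± 0.501) and Ccl7 (listed at 0) followed. No neighbours among these 10 overlapped on TH. On THCaP the first 4 kept their places, at 676 ± 132, 231 ± 57.1, 88.2 ± 20.4 and 52.0 ± 7.84 FPKM (n = 3 each). Ccl5 changed places with Cxcl14: Cxcl14 stood at 9.57 ± 2.3 FPKM and Ccl5 at 7.0 ± 1.59 FPKM on THCaP, and their libraries overlapped. Ccl22 came after Ccl2 on THCaP, at 0.465 ± 0.237 and 0.887 ± 0.384 FPKM, also with overlap.

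The 10 ligands together took 0.17% to 0.195% of the counts of a TH library and 0.0783% to 0.115% of those of a THCaP library. Their summed FPKM was 2191, 1927 and 1972 on TH and 1063, 854 and 1285 on THCaP. The sum is nearly all Ccl3, Ccl4, Cxcl2 and Ccl9, which made up 97.6% to 98.1% of it on TH and 97.6% to 98.6% on THCaP. Within the sum Ccl3 held 58.7% to 60.2% on TH and 63.1% to 64.1% on THCaP, while Ccl4 held 25.4% to 25.8% and 20.4% to 22.4%. The share of Ccl5 was 1.54% to 1.94% on TH and 0.605% to 0.752% on THCaP. Cxcl14 moved the other way, from 0.172% to 0.259% on TH to 0.579% to 1.41% on THCaP.

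Ratios of counts within a library, which do not depend on how libraries are scaled, set the ligands beside each other. Against Ccl3, 7 ratios were formed, and with 3 against 3 libraries none of them could pass 0.05, so they are given as values. The log2 ratio of Ccl9 to Ccl3 was −1.70 ± 0.07 on TH and −1.76 ± 0.06 on THCaP (SD, n = 3 each; two-sided exact permutation p = 0.4). That of Cxcl2 to Ccl3 was −2.49 ± 0.16 and −2.49 ± 0.06 (exact permutation p = 1.0, n = 3 each), and in both cases the surfaces overlapped. The log2 ratio of Ccl4 to Ccl3 was −1.45, −1.49 and −1.50 on TH and −1.79, −1.91 and −1.75 on THCaP, lower in all 3. For Ccl5 the log2 ratio to Ccl3 differed by −1.49 between the surfaces (−5.68 ± 0.15 to −7.17 ± 0.18), for Ccl22 by −1.05 (−8.41 ± 0.14 to −9.45 ± 0.70) and for Cxcl14 by 2.02 (−6.87 ± 0.29 to −4.85 ± 0.63). These 4 ratios did not overlap and gave the smallest two-sided exact permutation p that 3 against 3 libraries allow, 0.1, or 0.175 after Benjamini-Hochberg adjustment over 7 ratios. Ccl3 itself fell (log2 change −0.89), so every ratio also holds that fall, and a gene without change would rise against Ccl3. The share of all genes with separate ratios to Ccl3 was not computed, so the separation is a description. The ratio of Cxcl10 to Ccl3 overlapped (difference 0.15, exact permutation p = 0.9, n = 3 each).

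**Figure D3:**
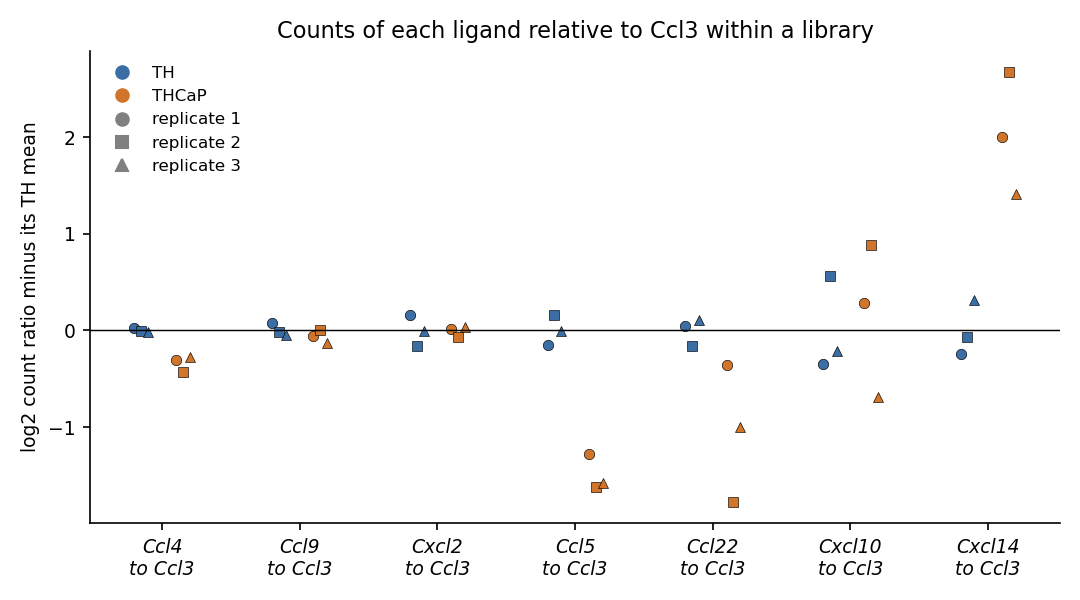
Log2 ratio of the counts of 7 ligands to those of Ccl3 within each library, with the mean of the 3 TH libraries set to 0 (vertical axis, log2 units). THCaP libraries (orange) lie with the TH libraries (blue) for Ccl9, Cxcl2 and Cxcl10, below them for Ccl4, Ccl5 and Ccl22, and above them for Cxcl14.

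The 3′ untranslated regions (UTRs) of the ligands differed in AU-rich elements, which recruit mRNA decay factors. In the principal GENCODE transcript, Cxcl2 held 7 copies of TATTTAT, the core bound by the Zfp36 protein, and Ccl3, Ccl4 and Ccl22 held 1 each. The other 6 ligands held 0. Of 10914 tested genes with a 3′ UTR, 26.8% held at least 1 copy and 3.16% held 3 or more. The pentamer ATTTA occurred 14.9 times per kb in Cxcl2 and 12.1 times in Ccl3, compared with a median of 1.18 and a 90th percentile of 4.18 over those genes. Ccl5 and Cxcl14, the member that fell most and the one that rose, held 0. The densest site of Cxcl2 is printed with TATTTAT in capitals, beside that of Ccl3.
Cxcl2, chr5:90905327-90905356, plus strand: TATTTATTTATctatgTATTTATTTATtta
Ccl3, chr11:83648014-83648043, minus strand: attgtcatacttgtatttgtgacTATTTAT

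Of 18 tested mRNA decay factors, 2 fell, 2 rose and 14 were not called, which is near the 12.0% lower and 11.6% higher of all tested genes and thus no result about the list. Zc3h12a, an RNase that cuts inflammatory mRNAs, fell 1.75-fold (54.6 ± 1.14 to 31.1 ± 5.6 CPM, n = 3 each; edgeR adjusted p = 0.00465). Zfp36 (tristetraprolin) measured 488, 423 and 403 CPM on TH and 297, 241 and 349 CPM on THCaP, and fell 1.48-fold (edgeR adjusted p = 0.0177). Its adjusted p rose to 0.0523 with TH replicate 1 left out, to 0.0555 with TH replicate 2 and to 0.0623 with THCaP replicate 1, all beyond the threshold. Hnrnpd, an AU-rich element binding protein, was 1.42-fold higher, a call that ended on leaving out TH replicate 2 (adjusted p 0.0736), TH replicate 3 (0.071) or THCaP replicate 1 (0.06). Zfp36l2, a relative of Zfp36, was 1.21-fold higher, a call that ended on leaving out any 1 TH library (adjusted p 0.0533, 0.14 and 0.0779 for replicates 1 to 3) or THCaP replicate 1 (0.146). The list's counts ran from 1 to 4 lower and from 0 to 4 higher when 1 library was left out: 1 lower without TH replicate 2 or THCaP replicate 1, and 4 lower and 4 higher without THCaP replicate 3. None was higher on leaving out THCaP replicate 1 or either of TH replicates 2 and 3, and 1 was higher without TH replicate 1.

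Among 31 other chemokine ligand genes of the mouse, 15 were in the table and 3 were tested. Cxcl16, a membrane-bound ligand of Cxcr6 and a scavenger receptor, had 30.4, 33.2 and 31.8 CPM on TH and 17.3, 16.4 and 17.3 CPM on THCaP. It fell 1.87-fold with little spread in either group (31.8 ± 1.4 to 17.0 ± 0.539 CPM, n = 3 each; log2 change −0.90 with SE 0.09, adjusted p = 0.00103 in edgeR). Ccl25, known from thymus and gut, was not called (2.34 ± 0.594 and 3.09 ± 0.455 CPM, n = 3 each; log2 fold change 0.40, edgeR adjusted p = 0.234), and neither was Ccl6.

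Receptors for these ligands were mostly low. Of 24 receptor genes 9 were tested, of which 2 fell, 1 rose and 6 were not called, beside 12.0% lower and 11.6% higher among all tested genes. Cxcr2, the receptor of Cxcl2, had 2 counts in all on each surface. The receptor called higher was Cx3cr1, which binds none of the 10 ligands (128, 84.7 and 83.0 CPM on TH, 227, 278 and 164 CPM on THCaP; 2.27-fold, edgeR adjusted p = 0.00753). Ccrl2, a nonsignalling relative of the receptors, fell 1.95-fold (7.51 ± 0.268 to 3.86 ± 1.16 CPM, n = 3 each, adjusted p = 0.016 in edgeR). Leaving out TH replicate 2 or TH replicate 3 ended that call (0.0581 and 0.0514). The other gene that fell, Cxcr4, had a mean under 5 CPM (log2 fold change −1.24, edgeR adjusted p = 0.00849). It is named because it completes the count. Without TH replicate 1, 2 receptors were called higher, and without TH replicate 2 or TH replicate 3 only 1 was called lower.

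Of 29 tested genes on the route from the LPS receptor to NF-κB, 11 fell, 0 rose and 18 were not called, against 12.0% lower and 11.6% higher among all tested genes. Their median log2 fold change was −0.14. The largest decreases were in Bcl3, a nuclear cofactor of NF-κB (26.7 ± 2.24 to 12.0 ± 0.645 CPM, 2.22-fold, edgeR adjusted p = 0.000787), and Irak2, a kinase that sustains receptor signalling (192 ± 12.6 to 89.2 ± 15.1 CPM, 2.15-fold, edgeR adjusted p = 0.00168). The NF-κB inhibitor Nfkbie was 1.85-fold lower and the subunit Relb 1.79-fold lower (n = 3 each). Nfkbia and Nfkbib, inhibitors as well, were 1.65-fold and 1.45-fold lower. Tnfaip3 and Tnip1, which restrain the route, and Nfkbiz, Nfkb2 and Rel were the other genes called lower. With TMM factors Irak2 was the only receptor, adaptor or kinase gene of the list that was called. The receptor Tlr4 (49.1 CPM with TH, 44.5 with THCaP) and the subunit Rela (88.0 and 80.5 CPM) did not pass the test. When libraries were scaled by their totals, 2 of these genes were called higher.

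On the route to interferon 7 of 19 tested genes fell, 0 rose and 12 were not called, with a median log2 fold change of −0.26. The shares over all tested genes were 12.0% lower and 11.6% higher. The interferon-induced transcription factor Irf7 measured 70.6, 85.9 and 61.8 CPM on TH and 23.8, 28.9 and 23.9 CPM on THCaP (2.85-fold lower, edgeR adjusted p = 0.000735). The kinase Ikbke was 1.75-fold lower, Irf9, a transcription factor that binds ISRE sites, 1.52-fold lower, and the receptor subunit Ifnar1 1.48-fold lower, with adjusted p of 0.00195, 0.00454 and 0.00854 (edgeR). Transcripts of interferon beta itself, Ifnb1, averaged 0.0119 CPM on TH and 0 on THCaP and were not tested.

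Proteases that trim or release chemokines fell in 6 of 9 tested cases and rose in 0, with 3 not called and a median log2 fold change of −0.34, beside 12.0% lower and 11.6% higher among all tested genes. Mmp9 fell most of them, 3.69-fold, at a mean under 5 CPM (5.31 ± 0.703 to 1.43 ± 0.56 CPM, n = 3 each, edgeR adjusted p = 0.00369). Adam8 was 1.87-fold lower (156 ± 8.65 to 83.0 ± 5.18 CPM, n = 3 each; edgeR adjusted p = 0.000787) and the lysosomal protease gene Ctsb 1.36-fold lower (edgeR adjusted p = 0.00849). Adam17, a sheddase of membrane-bound ligands, was 1.27-fold lower, and leaving out TH replicate 2, TH replicate 3 or THCaP replicate 1 ended the call (adjusted p 0.0768, 0.0934 and 0.0668). Ctsd was 1.26-fold lower and ended with the same libraries (0.0551, 0.0834 and 0.0995). Without each of those 3 libraries the list's count was 3 in place of 6, while 4.37%, 4.23% and 4.01% of all tested genes were called lower. Scaling by library totals gave 1 protease called higher.

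**Figure D4:**
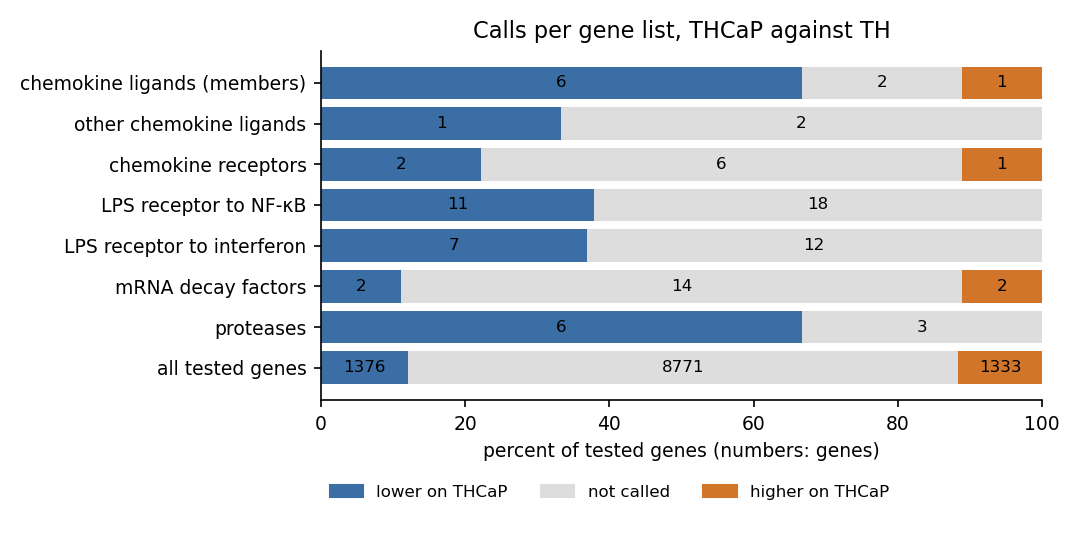
Percent of the tested genes of each list called lower on THCaP (blue), not called (grey) and called higher (orange), with the number of genes in each segment and all 11480 tested genes in the bottom bar. With all 6 libraries, lower calls outnumber higher calls in the lists drawn except the mRNA decay factors, which have 2 of each; receptors have 2 of each without TH replicate 1 and 1 of each without TH replicate 2 or 3. Over all tested genes 1376 were called lower and 1333 higher.

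The genes whose level followed Ccl5 most closely over the 6 libraries were Tbkbp1, Midn and Slfn2 (Pearson r of log2 CPM 0.9985, 0.9982 and 0.9978 among 8771 genes averaging 10 CPM or more). Those closest to Cxcl14 were Ska2, Gclc and Rad54l (r 0.9992, 0.9965 and 0.9952). All 6 points come from 2 surfaces, so these values mostly reflect the difference between surfaces and are a description. The sizes of change were not alike: Slfn2 was 2.76-fold lower on THCaP and Tbkbp1 1.32-fold lower, beside 5.20-fold for Ccl5. Rad54l was 1.86-fold higher and Gclc 1.26-fold higher, beside 2.18-fold for Cxcl14.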

How the data were processed

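RNA of 6 samples of Raw264.7 cells was extracted with TRIzol and sequenced from VAHTS Universal V6 libraries, per the labels' protocols. The deposited counts are whole reads per gene symbol. fastp, HISAT2 and HTSeq with genome build mm10 are named in the submitters' processing notes; the sources used here give no version, annotation or strand setting. The FPKM values deposited by the authors follow from these counts, since the length they imply came out whole, to within 0.01 bases, in 100% of the 11923 genes that reach 10 counts in some library. Group and replicate came from the labels. Separate cultures are not stated there, so p-values measure only the spread between these samples. Libraries within a group differed beyond sampling noise (chi-square per degree of freedom 3.84 to 48.4).

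Counts were tested in R 4.3.3 with edgeR 4.0.16 over all genes: filterByExpr (minimum count 10, total 15) kept 11480 of 16171 genes, with TMM factors and a robust quasi-likelihood F test of THCaP against TH with no covariate. Calls need a Benjamini-Hochberg adjusted p under 0.05. The SE was taken as the size of the log2 change over the square root of F. Ratios used an exact permutation test (SciPy 1.17.1). Alternatives were DESeq2 1.42.0, limma 3.58.1 (voom, and log2 of FPKM plus 1 or 0.1 for genes with a mean of at least 1 FPKM, the former also with no filter), RLE factors, library totals, no filter, 5 CPM in at least 3 libraries, a replicate block and each library left out. Leaving out both TH replicate 1 and THCaP replicate 3 was added after seeing the data.

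The members and lists were chosen with earlier results of these data known. Every member is named, as is every other tested ligand, and for each further list up to 4 called genes with the largest change and a mean of at least 5 CPM. Some further genes, such as Cxcr4, Mmp9 and Nfkbia, are named outside this rule. Positions came from GENCODE M21 on GRCm38, and upstream sequences from RefSeq on GRCm38.p6. Motifs were searched in 250 bases before the RefSeq start. For Cxcl2, whose GENCODE start lies 28 bases further upstream, only bases before both starts are printed.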

Additional observations from a re-analysis of the deposited data

How the results depend on the processing

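The log2 fold changes of Ccl5 and Ccl9 were called in all 17 alternatives, and no member changed direction in any alternative that tested it. With limma on log2(FPKM + 1) of all genes without a filter, 2 members were called lower in place of 6 and 0 higher in place of 1. There Ccl3 (−0.86), Ccl4 (−1.19), Ccl22 (−0.82), Cxcl2 (−0.85) and Cxcl14 (1.00) missed the threshold, at adjusted p of 0.0577, 0.0526, 0.0547, 0.0937 and 0.0647, while 3.87% of all genes were called in place of 23.6%. That setting also gave 0 receptors lower, 0 receptors higher, 1 NF-κB route gene higher, 3 interferon route genes lower, 0 mRNA decay factors lower and 0 higher, and 2 proteases lower. When single libraries were left out, the count of members called lower stayed at 6 and the count higher ran from 1 to 2. The log2 fold change of Ccl2 ran from 0.40 to 2.09. Counts ran from 1 to 2 for receptors lower, 1 to 2 for receptors higher, 1 to 4 for decay factors lower, 0 to 4 for decay factors higher and 3 to 6 for proteases lower. Without both TH replicate 1 and THCaP replicate 3, Ccl2 was called (1.90, adjusted p = 0.0382), which made 2 members higher. The lists then gave 2 receptors higher, 2 NF-κB route genes higher, 13 interferon route genes lower and 1 higher, and 7 decay factors lower and 4 higher, with 45.3% of all genes called. With library totals, log2(FPKM + 1) or log2(FPKM + 0.1), 2 NF-κB route genes, 4 decay factors and 1 protease were called higher. Over all genes library totals called 1904 higher and 1063 lower, and log2(FPKM + 1) 1762 and 964, beside 1333 and 1376 with TMM factors. Leaving out single libraries gave 756 (THCaP replicate 1) to 4165 (THCaP replicate 3) calls over all genes. DESeq2 called 4 decay factors lower and 4 higher. The filter of 5 CPM left 1 receptor lower, because fewer genes were tested. The cause of the other shifts was not tested.

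For libraries that share a replicate number, deviations from the group means correlated at r −0.0555, −0.1282 and 0.1269 for numbers 1, 2 and 3. Centring on a mean of 3 libraries ties these deviations together, so the values cannot decide whether the numbers pair the samples. TH replicate 1 was most like THCaP replicate 2 (r 0.1868). With the replicate block 2881 genes were called in place of 2709, with 6 members lower and 1 higher. The adjusted p of every tested member was lower with the block, for Ccl4 3.6e-06 in place of 0.00314 (edgeR). Depth limits Ccl7 and the receptor Cxcr2, whose counts are too few for a difference to be seen. For Ccl2 the spread between libraries exceeded counting error: the 95% exact Poisson interval of TH replicate 1 (17.0 to 38.1 counts) lies above those of TH replicates 2 and 3 (up to 11.7 and 10.2 counts).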
